A study of Mus musculus with 15 samples.

Results

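The genes Fabp1, Fabp2, Gcg, Sct and Lyz1 were followed through a comparison of TKO and J1 mouse embryonic stem (ES) cells. All 5 encode products known from the gut epithelium, and every probe that carries one of these names on the study's arrays was taken. The expression arrays held 7 such probes of 41174. Fabp1, Sct and Lyz1 had 1 each, and Fabp2 and Gcg had 2 each. The promoter arrays are a pair of designs that hold different promoters, called part 1 and part 2. Part 1 held 18 such probes of 40283, of which Fabp1 had 6, Fabp2 6, Gcg 5 and Sct 1. Part 2 held 0 of 40284 under these names. Lyz1 appeared there under the older name Lzp and was found through its transcript accession, with 10 probes. The expression probe of Lyz1 is named Lzp-s, and it is annotated to both Lyz1 and its neighbour Lyz2, so this probe cannot tell their RNA apart.

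TKO is a methylation-deficient mouse ES line known for the loss of the DNA methyltransferases Dnmt1, Dnmt3a and Dnmt3b, and J1 is the wild-type ES line. Both were grown in DMEM with 15% serum and LIF at 37 °C in 5% CO2, and for 2 passages without feeder cells. For MeDIP (methylated DNA immunoprecipitation, a pull-down with an antibody against methylated cytosine), 2 ug of genomic DNA was used, and TKO and J1 material were hybridised together on 7 arrays of each part. RNA of both lines, grown under the same conditions, was compared on 3 arrays, deposited as 1 sample. There was 1 line of each genotype. The MeDIP replicates came from different passages, so the spread between arrays covers passages and hybridisations, and p-values do not cover the spread between lines. The sources used here do not say which passages gave the RNA, so SDs and p-values of RNA cover the spread between 3 arrays of 1 deposited sample, which may be technical.

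Fabp1 and Fabp2 encode small cytosolic proteins that carry long-chain fatty acids in the absorptive cells of the small intestine, and Fabp1 is also abundant in liver. Gcg encodes proglucagon, which is cut into glucagon in pancreatic alpha cells and into glucagon-like peptides in enteroendocrine L cells. Sct encodes secretin, the hormone of duodenal S cells that drives bicarbonate secretion by the pancreas, and Lyz1 encodes the lysozyme of Paneth cells, which cuts bacterial cell walls. CpG methylation at promoters is in general linked with low transcription, most clearly where CpG sites are dense.

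MeDIP ratios are log2 of the signal in the channel labelled TKO over that in the channel labelled J1, centred on each array's median. The labels put TKO in Cy5 and J1 in Cy3 on every MeDIP array. No array swapped the dyes, so dye and line cannot be told apart, and a positive ratio is not read here as more methylated DNA in either line. Earlier MeDIP results of these arrays chose Fabp1, Fabp2, Gcg and Lyz1, so their MeDIP ratios are a description, with no test. What chose Sct is not recorded, and its ratios are given in the same way.

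The 250 bases before each annotated start are printed because the MeDIP ratio over all promoters went with the number of CpG sites in that window. They come from RefSeq on build GRCm38.p6, which had all 5 genes, and run 5′ to 3′ along the gene's strand with each CpG in capitals. The windows are chr6:71199629-71199878 on the + strand for Fabp1, chr3:122894822-122895071 on the + strand for Fabp2, chr2:62483654-62483903 on the - strand for Gcg, chr7:141279134-141279383 on the - strand for Sct and chr10:117292869-117293118 on the - strand for Lyz1.
Fabp1: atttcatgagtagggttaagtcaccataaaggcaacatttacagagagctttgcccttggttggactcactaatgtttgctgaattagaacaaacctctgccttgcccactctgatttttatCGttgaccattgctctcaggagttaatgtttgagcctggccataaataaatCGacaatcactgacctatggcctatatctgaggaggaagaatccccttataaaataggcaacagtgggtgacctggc
Fabp2: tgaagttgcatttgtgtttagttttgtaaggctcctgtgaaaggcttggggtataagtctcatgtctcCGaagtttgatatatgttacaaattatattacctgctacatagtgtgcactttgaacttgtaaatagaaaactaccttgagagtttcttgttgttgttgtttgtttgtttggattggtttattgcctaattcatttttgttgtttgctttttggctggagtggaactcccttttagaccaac
Gcg: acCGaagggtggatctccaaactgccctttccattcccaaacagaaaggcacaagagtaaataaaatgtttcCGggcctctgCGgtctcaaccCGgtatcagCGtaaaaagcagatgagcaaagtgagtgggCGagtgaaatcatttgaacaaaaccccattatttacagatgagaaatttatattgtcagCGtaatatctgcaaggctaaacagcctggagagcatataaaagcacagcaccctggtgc
Sct: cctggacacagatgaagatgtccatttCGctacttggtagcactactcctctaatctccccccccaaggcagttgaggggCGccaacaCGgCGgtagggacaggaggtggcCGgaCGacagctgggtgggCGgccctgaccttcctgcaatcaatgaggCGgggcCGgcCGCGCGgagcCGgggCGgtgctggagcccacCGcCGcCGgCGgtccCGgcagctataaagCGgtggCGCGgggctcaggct
Lyz1: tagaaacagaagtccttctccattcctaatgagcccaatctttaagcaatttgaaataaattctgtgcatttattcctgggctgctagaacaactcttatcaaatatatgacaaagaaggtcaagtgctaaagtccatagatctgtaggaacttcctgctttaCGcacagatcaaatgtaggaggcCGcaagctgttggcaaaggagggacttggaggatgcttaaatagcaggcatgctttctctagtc

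Sct had a CpG-rich window and the others did not. The Sct window held 22 CpG sites and was 68% G or C. Gcg held 7, Fabp1 and Lyz1 held 2 each, and Fabp2 held 1, with 35.6% to 44.8% G or C. The median over 32851 RefSeq promoters was 6 CpG sites, with quartiles at 2 and 16. As few or fewer sites were found in 86.7% of promoters for Sct, 57.0% for Gcg, 29.0% for Fabp1 and Lyz1, and 18.8% for Fabp2.

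Short motifs were searched on both strands of the same windows. The TATA box core TATAAA was found 30 bases before the start of Fabp1, 28 before that of Sct and 24 before that of Gcg, with another match on the opposite strand of Gcg, and 12.4% of all promoters held it. The GC box GGGCGG was found in the Sct window alone among these genes, with 2 matches, against 32.7% of all promoters with at least 1. The Fabp1 window held 2 matches of the Cdx motif TTTATG, which 10.8% of promoters held. None of the 5 windows held the GATA motif AGATAA, which 9.99% held. A match says only that these letters are present. Lyz1 and its neighbour Lyz2 were 80.6% identical over 248 aligned bases, and the other pairs between 47.4% and 58.4%.

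At the promoter arrays, Fabp1, Fabp2, Gcg and Lyz1 lay above 0, towards the channel labelled TKO, and Sct lay near 0. A promoter here is a group of at least 3 probes of a transcript, and it was called where the adjusted p from limma was under 0.05 and the mean log2 ratio at least 0.5 from 0. Fabp1, Fabp2, Gcg and the Lyz1 start region were past both limits, as were 2.45% of promoters on part 1 and 2.78% on part 2 on the side labelled TKO. On the side labelled J1 the shares were 0.0415% and 0.123%. The members were chosen on this contrast, so nothing is read from the count. With normexp background correction 15 promoters of both parts were called on the side labelled TKO, against 380. That setting starts from mean and background intensities and adds an offset of 50, which shrinks the raw ratios of dim signals. The size limit stayed at 0.5.

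Fabp2 had a lowest log2 ratio of 0.49, a median of 0.77 and a highest of 1.18 over 7 arrays, with a mean of 0.76 ± 0.23 (SD). All 7 arrays were above 0, and Fabp2 ranked 21 of 7237 promoters on part 1. Lyz1 ran from 0.46 through a median of 0.67 to 1.13, with a mean of 0.70 ± 0.22 (SD, n = 7). It was positive on every array and ranked 55 of 7296 on part 2.

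Gcg ran from 0.35 through a median of 0.53 to 0.94, with a mean of 0.61 ± 0.19 (SD, n = 7), and ranked 80. Fabp1 ran from 0.43 through 0.52 to 0.56, with a mean of 0.51 ± 0.04 (SD, n = 7), and ranked 170. Both were above 0 on all arrays, and the arrays of Fabp1 lay closer together than those of Gcg. Only 3.52% of part 1 promoters had a smaller SD than Fabp1, against a median SD of 0.10 over all promoters. That small SD belongs to the mean over all Fabp1 probes. It was 0.14 on probes well above background in both channels and 0.17 with the median over probes. Fabp2, Gcg and Lyz1 had larger SDs than 95.6%, 91.4% and 94.1% of the promoters of their parts. With normexp background correction the means were 0.22 for Fabp2, 0.24 for Lyz1, 0.20 for Gcg and 0.16 for Fabp1, all short of the size needed for a call.

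**Figure D1:**
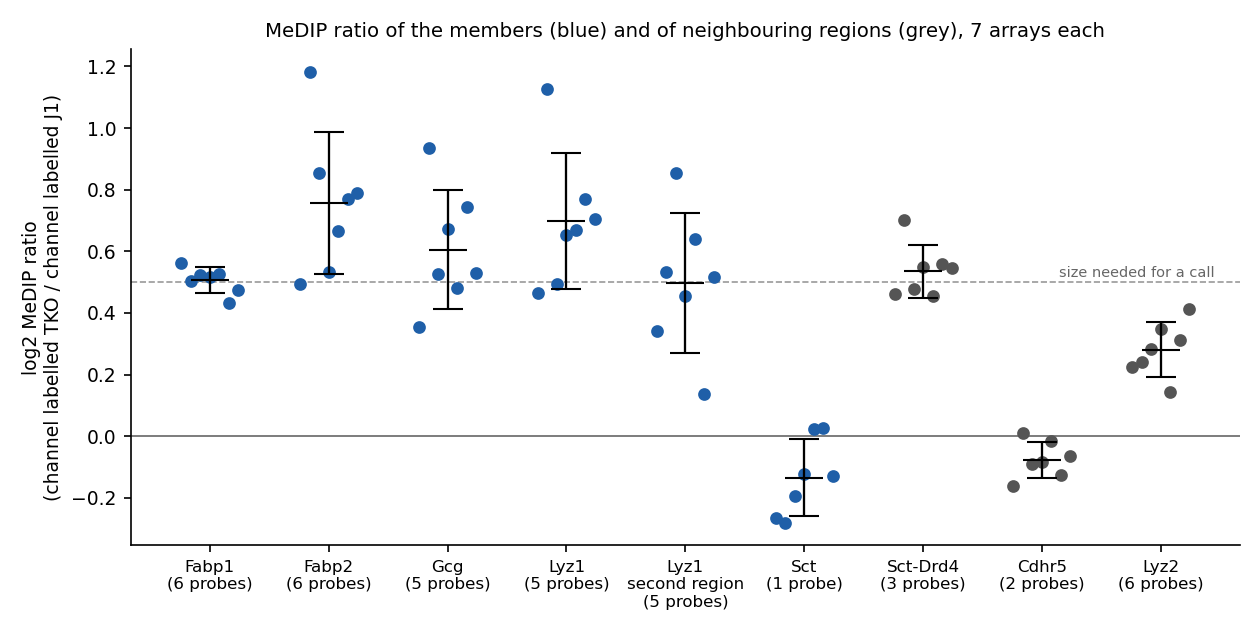
Log2 MeDIP ratio (channel labelled TKO over channel labelled J1) of the genes and of neighbouring regions, with 1 point per array and bars for mean and SD over 7 arrays. Fabp1, Fabp2, Gcg and both Lyz1 regions lie above 0 on every array, and Sct straddles 0 on its single probe.

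The 10 probes of Lyz1 fall in a pair of regions. The first has 5 probes near the Lyz1 start and gave the values above. The second has 5 probes near the start of another transcript, and ran from 0.14 through 0.52 to 0.85, with a mean of 0.50 ± 0.23 (SD, n = 7). It was above 0 on all arrays, and its mean of 0.497 was just short of the size needed for a call, while Fabp1 at 0.506 was just past it. Lyz2, the macrophage lysozyme gene beside Lyz1, had a mean of 0.28 ± 0.09 (SD, n = 7) over 6 probes and ranked 884.

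Sct had 1 probe of its own, 41 bases before the start, so it was not in the fit over promoters. Its lowest log2 ratio was -0.28, its median -0.13 and its highest 0.03, with a mean of -0.13 ± 0.12 (SD, n = 7). Only 2 of the 7 arrays were above 0. The region that the files name Sct-Drd4, with 3 probes between 3465 and 4075 bases before the Sct start, had a mean of 0.54 ± 0.09 (SD, n = 7) and was past the call limits, but it had 0.27 with normexp, short of them. The 2 probes of Cdhr5, a neighbour of Sct that encodes a cadherin of intestinal microvilli, averaged -0.08 ± 0.06 (SD, n = 7). These probes went opposite ways. The probe 185 bases before the Cdhr5 start had -0.36 ± 0.07, and that 48 bases past it had 0.21 ± 0.09 (SD, n = 7).

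Within a gene the probes did not move as one. Fabp1 had log2 ratios of -0.22 ± 0.18 and -0.19 ± 0.22 at 1141 and 861 bases before its start, both with strong signal. It had 0.76 ± 0.17 at 44 bases and 0.70 ± 0.20 at 324 bases past the start (SD, n = 7). The probes past the start were positive on all 7 arrays, and stayed at 0.55 and 0.51 with normexp background correction and its offset of 50. The largest Fabp1 value, 1.54 ± 0.96 at 581 bases before the start, came from a dim probe. It was well above background on 6 arrays in the channel labelled TKO and on 4 in that labelled J1, and with normexp it was 0.19. The probe at 301 bases before the start was well above background on no array in either channel, so its ratio is not read.

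All 6 Fabp2 probes had positive means, between 0.26 and 1.20. The largest that was well above background in both channels on every array, 1.08 ± 0.46 (SD, n = 7), lay 54 bases past the start, and with normexp it was 0.72. The 5 Gcg probes averaged between 0.19 and 1.02, and the probe at the start itself gave the lowest, 0.19 ± 0.13 (SD, n = 7). The highest, 235 bases past the start, was well above background on 6 arrays in the channel labelled J1, and with normexp it was 0.20. The 5 probes near the Lyz1 start averaged between 0.13 and 1.31, with 1.31 ± 0.42 at 131 bases and 1.16 ± 0.35 at 344 bases before the start (SD, n = 7). With normexp these 2 were 0.21 and 0.48. The probe at 131 bases was well above background on 6 arrays in the channel labelled J1. Over all 28 probes of the 5 genes, 24 had a mean above 0, or 20 with normexp, and 15 were above 0 on every array that measured them.

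**Figure D2:**
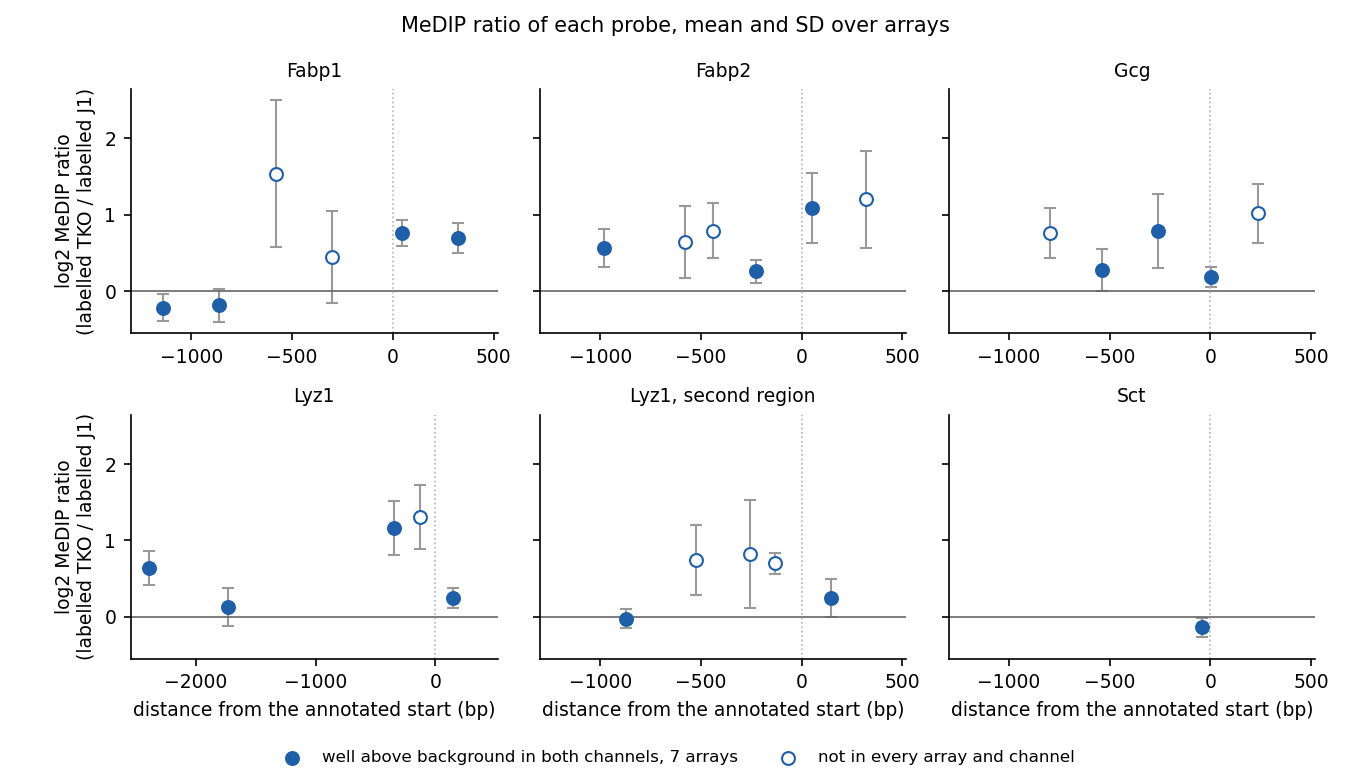
Log2 MeDIP ratio (channel labelled TKO over channel labelled J1) of each probe against its distance from the annotated start in bp, as mean and SD over arrays. Filled points were well above background in both channels on all 7 arrays, as 17 of the 28 probes were. Fabp1 changes from below 0 at its 2 far probes to 0.76 and 0.70 past the start.

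The ratio went with the brightness of the probe. The 28 probes were grouped by their median signal in the channel labelled TKO, which is also the numerator of the ratio. The 14 under 300 had a median log2 ratio of 0.75, and the 8 between 300 and 1000 had 0.73. The 6 over 1000 had 0.03, with none above 0.25. All probes of both parts were grouped by the geometric mean of the signals in both channels, so these groups differ in kind from those above. Their medians were 0.28 for signals under 100, 0.11 from 100 to 300, 0.01 from 300 to 1000, -0.04 from 1000 to 3000 and -0.10 above that. With normexp the dimmest group of all probes had a median of -0.21. The member probes then had 0.13 under 300, 0.45 from 300 to 1000 and 0.11 over 1000. The part of dim signal in the members' ratios was not tested. Keeping only probes well above background in both channels left Fabp1 at 0.26 and the second Lyz1 region at 0.11.

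Over all promoters the ratio also went with CpG number. Among the 8001 promoters with a CpG count, the median log2 ratio was 0.15 with 0 to 2 CpG sites, 0.14 with 3 to 5, 0.00 with 6 to 10, -0.04 with 11 to 20 and -0.07 with over 20. Fabp1, Fabp2 and Lyz1 lay above the upper quartile of their bin, which was 0.28, and Gcg lay above that of its bin, which was 0.12. Sct lay at the lower quartile of the bin with the most CpG sites, which was -0.13. Promoters with few CpG sites were also dimmer, with a median log2 signal of 8.86 at 0 to 2 sites against 10.02 at over 20, so CpG number and brightness move together here. Among promoters with 0 to 5 CpG sites, the dimmest 306 had a median ratio of 0.24 and the brightest 1003 had 0.09.

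**Figure D3:**
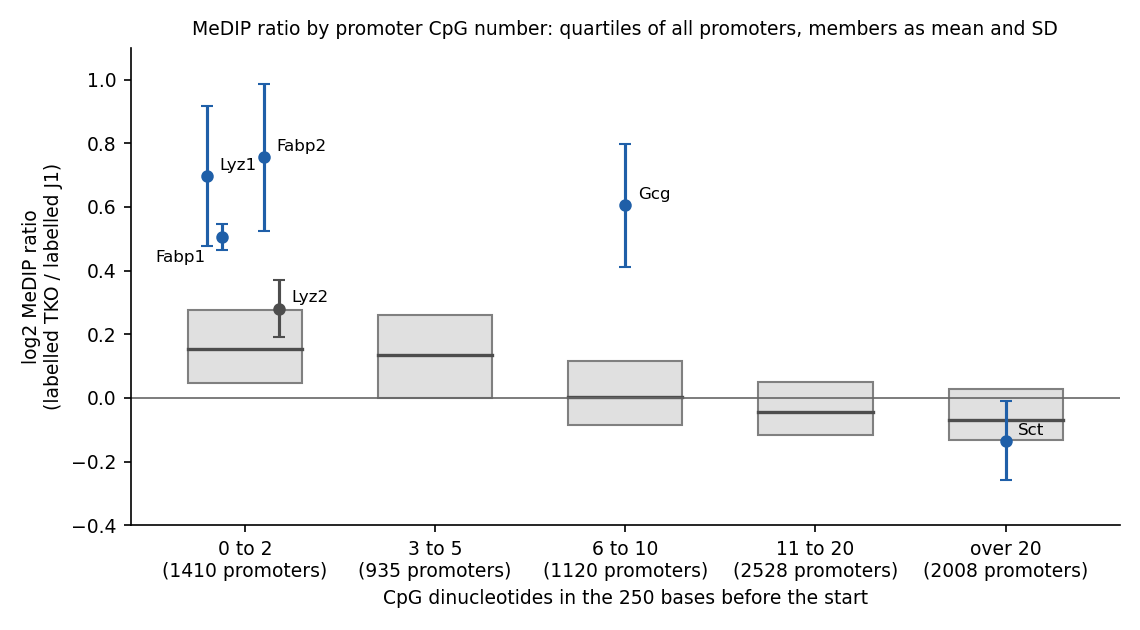
Log2 MeDIP ratio (channel labelled TKO over channel labelled J1) by the number of CpG sites in the 250 bases before the start. Boxes give the quartiles and median of all promoters in a bin, and points with bars give mean and SD over 7 arrays of the 5 genes (blue) and Lyz2 (grey). The medians run from 0.15 in the first bin to -0.07 in the last, and Fabp1, Fabp2, Lyz1 and Gcg lie above their boxes.

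Replicate 2 gave the highest ratio of the 7 for Fabp2, Gcg and Lyz1. It also had the widest spread over all promoters of each part, with an SD of 0.28 on part 1 and 0.29 on part 2, and 7.46% and 8.20% of its promoters were above 0.5. Without replicate 2 the mean log2 ratio was 0.68 for Fabp2, 0.55 for Gcg and 0.63 for Lyz1.

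The promoters whose 7 log2 ratios lay nearest to a member's, by Euclidean distance over the arrays of that part, were Olfr608 (distance 0.19) and Timm17b (0.22) for Fabp1. They were Cltrn (0.27) and Cep135 (0.28) for Fabp2, Il20 (0.15) and Adh7 (0.21) for Gcg, and Rnase2a (0.25) and Tmem71 (0.27) for Lyz1. For Sct they were Pepd and the promoter named Smarca3 in the files, at 0.10 and 0.11. For the second Lyz1 region the nearest was Olfr730, at 0.29.

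In RNA, Sct and Fabp1 were higher in TKO, and Fabp2, Gcg and Lyz1 were not well above background in either line on most arrays. The labels allow either dye for each line and list Cy5 first for J1, and the study's design text says that replicate 2 swapped the dyes. J1 is therefore likely in Cy5 on replicates 1 and 3. Read that way, RNA of the 3 deleted methyltransferases was lower in TKO. Dnmt3b had log2(TKO/J1) of -2.72, -2.44 and -2.36 on replicates 1 to 3. Dnmt3a had -2.49 and -2.23, and Dnmt1 had -0.89 and -1.25, on replicates 1 and 2. On replicate 3, 8386 spots were marked as uneven and left out, among them those of Dnmt3a, Dnmt1, Fabp1 and Sct, so the ratios of Fabp1 and Sct rest on 2 arrays.

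Sct, the secretin gene, had normalised RNA levels of 4647, 5146 and 3319 fluorescence units in TKO, against 1019, 1243 and 772 in J1, on replicates 1 to 3. Every TKO level was above every J1 level, also on the uneven spots of replicate 3. Log2(TKO/J1) was 2.19 and 2.05 on replicates 1 and 2, with a mean of 2.12 ± 0.10 (SD, n = 2), or 4.35-fold. Sct ranked 21 of 12004 genes tested, from the highest. Agilent's own processed signals gave 4.35-fold to 4.73-fold over the 3 arrays, and the authors' deposited table gave 4.58-fold. Since earlier results that chose Sct are not recorded, this is given with no test.

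Fabp1, the liver-type fatty acid binding protein gene, had RNA levels of 121.8, 120.0 and 114.9 fluorescence units in TKO, against 52.6, 63.9 and 54.5 in J1. The lines did not overlap on the 3 arrays. Fabp1 was well above background in TKO on all 3 arrays and in J1 on none, so J1 has only a bound, with a detection limit between 60.1 and 62.0. Fabp1 was at least 1.95-fold higher in TKO, where the bound used the J1 level of replicate 2, which lay above the limit. Fabp1 passed the filter on dim probes through TKO alone, so no test of it is given. Its fitted log2(TKO/J1), 1.06 ± 0.22 (SD, n = 2), is no measured fold, since J1 was not well above background and the levels hold an offset of 50. Agilent's processed signals, which have no such offset, gave 12.3-fold to 14.5-fold and the authors' deposited table gave 13.4-fold, also against J1 signals not well above background.

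Sct and Fabp1 were the 2 members that passed the filter on dim probes. Of all genes, 16.6% were called higher and 16.5% lower in TKO at an adjusted p under 0.05. With Sct and Fabp1 given without a test, nothing is read from a count of members. Fabp2, Gcg and Lyz1 did not pass the filter on dim probes. The 2 Fabp2 probes lay between 54.4 and 66.9 fluorescence units in TKO and between 55.2 and 67.4 in J1. The 2 Gcg probes lay between 55.8 and 65.0 in TKO and between 54.2 and 63.2 in J1. Lyz1 lay between 54.7 and 56.7 in TKO and between 54.6 and 61.7 in J1. The levels of the lines overlapped for all 3 genes, and 1 Fabp2 probe on replicate 1 was the single case well above background, in TKO. Fitted without the filter, limma gave adjusted p-values of 0.854 for Fabp2, 0.834 for Gcg and 0.715 for Lyz1. Differences below background were not detectable with these probes. In bulk RNA, fewer cells that express a gene and less RNA per cell cannot be told apart.

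**Figure D4:**
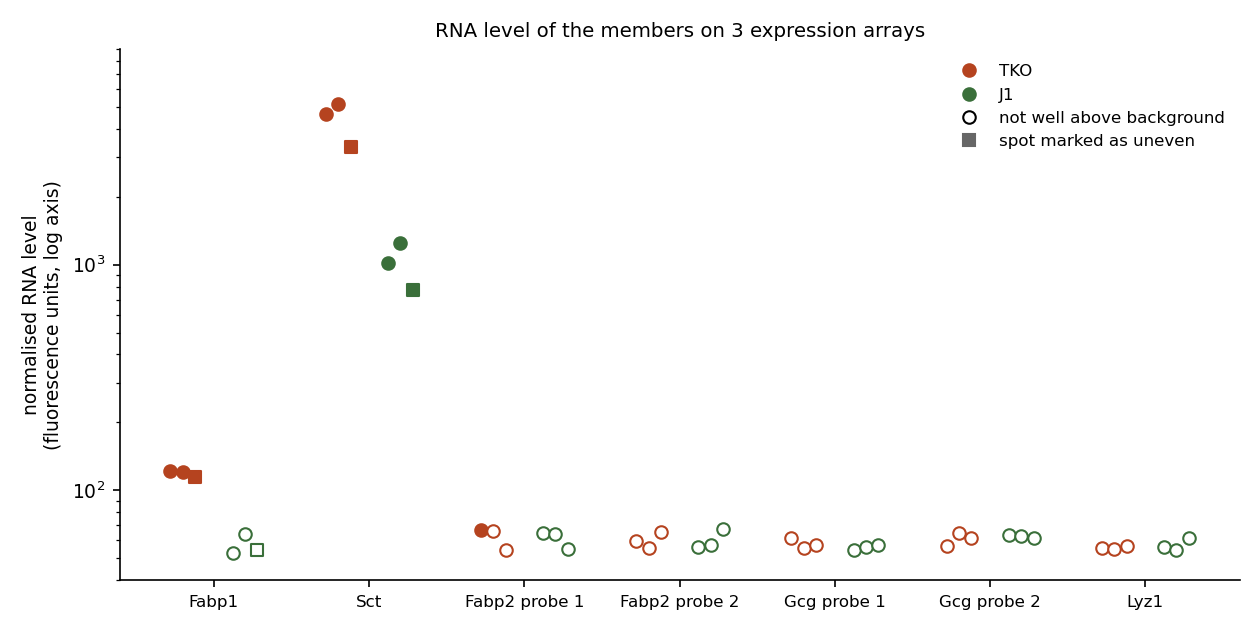
Normalised RNA level in fluorescence units on a log axis, for TKO (left in each pair) and J1, with 1 point per array for replicates 1 to 3. Open points were not well above background and squares are spots marked as uneven. Sct and Fabp1 are higher in TKO on all 3 arrays, and the probes of Fabp2, Gcg and Lyz1 lie between 54.2 and 67.4 in both lines.

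Set side by side, Sct had RNA well above background in both lines and a MeDIP log2 ratio of -0.13 ± 0.12 at its 1 probe. Fabp1 had RNA well above background in TKO alone and a ratio of 0.51 ± 0.04, or 0.26 ± 0.14 on probes well above background in both channels. The size of their RNA differences has no settled order, since that of Fabp1 is a bound. Fabp2, Lyz1 and Gcg had the higher MeDIP ratios and no RNA well above background on all arrays of a line. With 5 genes no relation between the assays was computed.

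Among genes nearest in RNA by Euclidean distance over the 2 arrays, Sct had Fgb, the fibrinogen beta chain gene, and Asz1, a germ cell gene, both at 0.08. Fabp1, whose fitted ratio rests on J1 signals not well above background, had Slamf9, at 0.02, beside a probe with no gene name. With 2 arrays these are genes of like ratio and no more.

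The family of intracellular lipid binding proteins has 15 listed genes, Fabp1 and Fabp2 included. Of these 5 were measured in RNA, and all passed, 3 as higher and 2 as lower in TKO. Their median log2(TKO/J1) was 0.36, against -0.01 over all genes. Of all genes, 16.6% passed as higher and 16.5% as lower. Fabp1, which is among the 3, passed the filter on dim probes through TKO alone. Rbp7, which carries retinol, was lower in TKO at -1.17 ± 0.25 (SD, n = 3), with a limma adjusted p of 3.3e-05. Fabp3, the heart-type member, and Crabp1, which binds retinoic acid, were higher at 0.38 ± 0.16 and 0.36 ± 0.17 (SD, n = 2), with adjusted p-values of 0.0261 and 0.0370. Under median centring instead of loess neither Fabp3 nor Crabp1 passed, with limma adjusted p-values of 0.661 and 0.390, and Rbp7 did. Of the 12 promoters of this family, 2 were called in MeDIP, those of Fabp1 and Fabp2. Both were chosen on these values, so the count is fixed by that choice. Their median log2 ratio was 0.06, against 0.00 over all promoters, and Fabp3 had -0.16 ± 0.06, Rbp7 0.36 ± 0.09 and the testis member Fabp9 0.39 ± 0.17 (SD, n = 7).

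Of the 6 listed genes of the glucagon and secretin peptide family, 2 were measured in RNA. Sct is given above without a test, and Ghrh, which encodes growth hormone releasing hormone, had 0.23 ± 0.06 (SD, n = 3) and did not pass, with a limma adjusted p of 0.0556. It did pass with Agilent's processed signals, at 0.79, and without the filter. Of their 6 promoter regions, Gcg, which was chosen on these values, and the Sct-Drd4 region were called, and Gip, which encodes the incretin of K cells, had 0.16 ± 0.10 (SD, n = 7). Of 9 receptors of this family, Gipr and Vipr1 were measured, with log2(TKO/J1) of 0.23 ± 0.20 (SD, n = 2) and 0.14 ± 0.06 (SD, n = 3), and neither passed, with adjusted p-values of 0.148 and 0.217. Both passed with Agilent's processed signals, at 0.53 and 0.47. The secretin receptor gene Sctr was not well above background on any array in either line, and 0 of 8 receptor promoters were called. Of 10 genes of the lysozyme family none was measured in RNA, and of 7 promoter regions only that of Lyz1 was called, which was chosen on these values.

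Other genes of the gut epithelium moved both ways. Of 24 listed enterocyte genes, 12 could be measured. Of these 5 passed as higher in TKO, 2 passed as lower and 5 did not pass, and their median log2(TKO/J1) was 0.19. Here and for the lists that follow, the shares over all genes were 16.6% higher and 16.5% lower. Apob and Apoa1, which encode apolipoproteins, were at least 1.97-fold and 1.87-fold higher. Mogat2 and Dgat2, which make triglyceride, were higher at 0.97 ± 0.09 (SD, n = 3) and 0.89 ± 0.01 (SD, n = 2). Lgals4, a gut galectin, was lower at -0.94 ± 0.08 (SD, n = 3), and the keratin gene Krt20 was lower at -0.48 ± 0.03 (SD, n = 3). Krt20 and Mttp, whose protein loads lipid onto apolipoprotein B, lost their call with median centring. None of the 16 enterocyte promoters was called. Of all promoters, 2.45% on part 1 and 2.78% on part 2 were called towards labelled TKO. Nothing is therefore read from a list with no called promoter.

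Of 24 enteroendocrine genes 5 were measured. Pyy, the gene of the L cell peptide YY, and Isl1, a homeobox gene, were higher in TKO at 0.34 ± 0.14 and 0.33 ± 0.13 (SD, n = 3), and the granule protein gene Chga was lower at -0.65 ± 0.12 (SD, n = 2). The median of the 5 was -0.05, and with median centring all 3 calls were lost. The granule protein gene Scg2 had the only called promoter of 23, at 0.59 ± 0.18 (SD, n = 7). Of 15 Paneth and goblet genes, Best2, a channel gene, and Fcgbp, which encodes a mucus protein, were measured and higher, at 0.81 ± 0.06 and 0.33 ± 0.17 (SD, n = 3), and Fcgbp lost its call with median centring. None of the 12 Paneth and goblet promoters was called.

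Of 23 listed intestinal and endodermal transcription factors 8 could be measured. Of these 4 passed as higher in TKO, also with median centring, and 4 did not pass. Gata6, a factor of primitive endoderm, was higher at 1.56 ± 0.10 (SD, n = 3), Sox17 at 1.38 ± 0.18 (SD, n = 2), Klf4 at 0.97 ± 0.17 and Pparg at 0.81 ± 0.04 (SD, n = 3). Their median was 0.51, and 0 of 23 promoters were called.

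Most measured markers of visceral endoderm and hepatocytes were higher in TKO, as Sct and Fabp1 were. The part of other cell types in these results was not tested. Of 16 visceral endoderm genes, 14 could be measured, and 12 passed as higher in TKO, 1 passed as lower and 1 did not pass, where 16.6% of all genes passed as higher and 16.5% as lower. Their summed level was 18964 to 20808 fluorescence units in TKO, against 14846 to 17766 in J1. Afp, the alpha-fetoprotein gene, was higher at 3.86 ± 0.25 (SD, n = 2), the adaptor gene Dab2 at 2.38 ± 0.27 (SD, n = 3), Cited1 at 1.85 ± 0.10 (SD, n = 2) and the cubilin partner Amn at 1.82 ± 0.17 (SD, n = 3). The promoter of Afp was called in MeDIP, at 0.57 ± 0.22 (SD, n = 7). Of 15 hepatocyte genes 5 could be measured, and 4 passed as higher and 1 did not pass, led by Fgb at 2.07 ± 0.08 (SD, n = 2), with summed levels of 1618 to 1728 in TKO and 1110 to 1243 in J1. With median centring 1 of the 4 kept its call. The lists share genes, so their counts are not separate. Apoa1, Apob and Apoa4 are also in the enterocyte list, and Ttr is in both the visceral endoderm and hepatocyte lists. Apoa1, Apob, Ttr and Afp passed the filter on dim probes through TKO alone. In J1, Afp was well above background on 2 arrays and the others on none.

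Of 7 ES cell markers 6 could be measured, and 3 passed as lower in TKO and 3 did not pass, with Sox2 at -0.82 ± 0.13 (SD, n = 3), Pou5f1 at -0.72 ± 0.14 (SD, n = 2) and Esrrb at -0.45 ± 0.06 (SD, n = 2). Their summed level was 74361 to 111231 in TKO, against 66927 to 87461 in J1, and with median centring 1 of the 3 calls was kept. Of 12 fibroblast markers, 6 could be measured, and 5 passed as higher and 1 as lower, with summed levels of 5074 to 6768 in TKO and 5140 to 6842 in J1. With median centring 3 passed as higher and none as lower. Of 10 macrophage markers, 3 could be measured, and 1 passed as higher and 2 as lower, with summed levels of 958 to 1144 in TKO and 1090 to 1323 in J1. With median centring 1 passed as higher and 1 as lower. Arrays ranged from 38.6% to 66.8% of expression probes well above background, lowest on replicate 3, and from 88.2% to 99.7% on the MeDIP arrays, and the number of arrays limits the precision.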

How the data were processed

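MeDIP DNA and RNA from TKO and J1 ES cells were measured on 2-colour Agilent arrays. The submitters' processing notes name Agilent Feature Extraction 8.5 for the scanner files, while 2 expression arrays give A.7.5.1, per the file headers. MeDIP ratios used the deposited processed intensity, which has background subtracted and dyes normalised. RNA values used the deposited mean and background intensity of each spot, and the authors' deposited tables hold log10 ratios.

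Log2 MeDIP ratios came from the processed signals, median-centred per array with no loess. Control and uneven spots were dropped. Probes of one transcript formed a promoter if there were at least 3, with a new one begun after any gap over 2000 bp. In all 7237 promoters on part 1 and 7296 on part 2 had their mean ratio tested by limma 3.58.1 under R 4.3.3 for a difference from 0, with Benjamini-Hochberg adjustment over both parts. RNA used normexp with an offset of 50, loess, the brightest probe of a gene, and probes well above background in TKO or J1 on all 3 arrays. RNA levels are given after Aquantile normalisation between arrays. A bound sets the mean of the brighter line against the dimmer line's detection limit, or against its level where that is higher. Dye bias is possible since only 1 of 3 arrays swapped the dyes.

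Accessions were named through RefSeq: 22072 of 41174 expression probes matched by accession and 10506 more by the file's gene name. No source used here gives the genome build of the probe positions, so only distances from starts are printed. Slide codes repeat between some arrays and were tried as a block. The fits were checked on simulated data. A few items are not reported here. The members and gene lists were chosen with earlier results of these data known. Besides the members, the genes named were up to 4 called genes of each list, relatives and receptors of the members, the deleted genes, and the nearest genes by Euclidean distance. Mttp, Cdhr5, and the remaining calls among list members were named after their values were seen.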

Additional observations from a re-analysis of the deposited data

Results flagged for a closer look

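Of 33 values examined for an array far from the other 6, 2 stood apart, and chance flags about 1 in 20 groups. Both are MeDIP log2 ratios of replicate 2 on part 1, labelled TKO over labelled J1. The Fabp2 probe 320 bases past the start was at 2.54, and the Gcg probe 235 bases past the start was at 1.84.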

How the results depend on the processing

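The MeDIP ratios of Fabp2, Gcg and Lyz1 moved by more than the spread between arrays under 1 of 15 alternatives each, normexp, and Sct under none of 15. Some alternatives could not move a ratio: the slide block for every gene, and the median over probes for Sct, which has 1 probe. With normexp, Fabp1 was 0.16, Fabp2 0.22, Gcg 0.20, Lyz1 0.24 and the second Lyz1 region -0.029, and 15 promoters were called towards the channel labelled TKO and 1 towards that labelled J1, against 380 and 12. Fabp1 was 0.44 with loess and 0.41 with the median over probes. Loess gave 232 and 20 calls. Probes well above background in both channels gave 164 towards labelled TKO, with Fabp1 at 0.26 and the second Lyz1 region at 0.11. Centring on the mode gave 7 calls towards labelled J1, and an adjusted p alone gave 4506 and 3721. Leaving out 1 array, calls towards labelled J1 ranged from 7, without replicate 6, to 17. In RNA, median centring left 371 genes higher and 580 lower in TKO, against 1988 and 1981. The authors' deposited table put Fabp1 at 3.74 on the log2 scale. The cause of these changes was not tested.

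Fabp1 has no value with RNA probes well above background in both lines, and the second Lyz1 region none where the file's gene name defines a promoter. No paired analysis was possible because parts 1 and 2 share replicate numbers but hold different promoters and are not compared, and each array already sets both lines against each other. The slide block was estimated on part 2 only (correlation -0.079) and was used for both parts. It gave 388 calls towards labelled TKO and 13 towards labelled J1, against 380 and 12. The block cannot change the genes' mean ratios, which are plain means over arrays. Dim signal limits the values of Fabp2, Gcg and Lyz1 in RNA and of the MeDIP probes not well above background.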
